A study of Mus musculus with 11 samples.

Results

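RNA sequencing of RPE/choroid was examined for 8 genes of the cell junctions that seal the retinal pigment epithelium (RPE): *Tjp1*, *Ocln*, *F11r*, *Cldn1*, *Cldn19*, *Cdh1*, *Cdh2* and *Cdh3*. They were chosen by gene name, and 8 of the 14602 genes in the count table met the rule. All libraries came from C57BL/6J mice and were collected at 12 months of age. The 6 naïve control libraries were from untreated mice of the same age, and the 5 laser treated libraries were from mice given the 2RT nanosecond laser at 9 months. The groups carried no other allele or agent according to the labels. The neural retina was removed and the RPE was collected along with the choroid, so each library is a mixture of cell types, and fewer cells of a type and less RNA per cell cannot be told apart. The labels do not tie libraries to individual mice, so p-values measure the spread between these samples.

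The RPE is a single sheet of pigmented cells between the photoreceptors and the choroidal blood supply, and it forms the outer blood-retinal barrier. Tight junctions close the space between neighbouring cells: claudins and occludin cross the membrane, junctional adhesion molecules lie beside them, and ZO-1 ties them to actin. Adherens junctions lie next to them, where cadherins bind their counterparts on the neighbouring cell and hold catenins on the inner side. Which cadherin an RPE cell uses differs between species and between tissue and culture.

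Total counts were between 25700881 and 38755994 per library. Of the 8 genes, 6 had reads in every library, and all 8 passed the filter on low counts. Of 12 RPE markers, 11 had reads in every library and *Best1* had none in 3 libraries. Their summed level, carried mostly by *Rgr*, *Ttr* and *Rpe65*, was 96404 to 134510 read counts scaled to the library size (CPM, edgeR's scaling) in controls and 80536 to 131835 CPM after laser. Neural retina markers (11 genes) summed to 6336 to 25511 CPM in controls and 4481 to 19669 CPM after laser, and surface epithelium markers (8 genes; *Trp63* was not in the table) to 15.4 to 1576 CPM and 5.02 to 1207 CPM. Each library's transcript assembly also carried a label, R1 (3 control and 2 laser treated libraries) or R2 (3 and 3), whose meaning is not given in the sources used here.

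*Cldn1* and *Cdh3* were the most abundant of the 8 genes per length. Over all 11 libraries the level per kilobase of exon was 97.4 ± 31.2 CPM/kb for *Cldn1* and 31.0 ± 8.61 CPM/kb for *Cdh3* (mean ± SD). *Ocln* followed at 4.80 ± 1.23 CPM/kb, *F11r* at 5.31 ± 3.05 CPM/kb, *Tjp1* at 1.89 ± 0.679 CPM/kb and *Cdh2* at 1.24 ± 0.393 CPM/kb, ordered by their mean log2 level. *Cdh1* at 0.345 ± 0.384 CPM/kb and *Cldn19* at 0.207 ± 0.247 CPM/kb came last. *Cldn1* thus exceeded *Cdh3*, and *Cdh3* exceeded *Ocln*, in 11 of 11 libraries each (adjusted p = 0.00342 for both, exact sign-flip permutation test, two-sided, 7 neighbouring pairs). Per kilobase of exon, *Ocln* and *F11r* did not differ beyond their spread (adjusted p = 0.805), nor did *Cdh1* and *Cldn19* (adjusted p = 0.219, same exact permutation test). The latter pair differed only with deposited TPM weighted by fragment length. *Cdh1* was then above *Cldn19* by 3.20 on the log2 scale (adjusted p = 0.0239, same test). The order of *Ocln*, *F11r*, *Tjp1* and *Cdh2* depended on the measure of level. With deposited TPM summed over each gene's fragments, *F11r* was below *Tjp1* by -0.32 on the log2 scale (adjusted p = 0.588, same test and same 7 pairs). *Tjp1* was below *Cdh2* by -0.40 (adjusted p = 0.178, same test), so neither reversal was beyond its spread. *Ocln* was then above *F11r* by 0.71, which did pass (adjusted p = 0.0239, same test and pairs). *Cdh2* was above *Ocln* by only 0.0077 (adjusted p = 0.974, same test, adjusted over the neighbouring pairs of the TPM order). Over all libraries *Cdh2* had 56 fragments, *Tjp1* 39, *Ocln* 37 and *F11r* 23, and their part in this order was not tested.

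**Figure D1:**
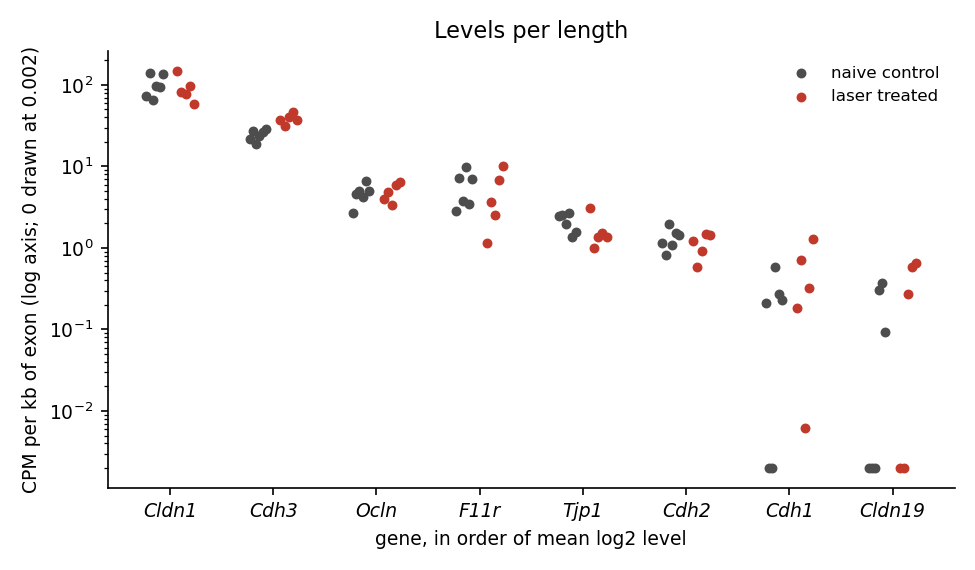
Level of each gene in CPM per kilobase of exon on a log axis, 1 point per library (6 naïve control, 5 laser treated), with 0 drawn at 0.002. *Cldn1* (mean 97.4) and *Cdh3* (mean 31.0) lie above the other genes, and *Cdh1* and *Cldn19* have libraries at 0.

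The comparison of laser treated with naïve control libraries asks whether RPE/choroid still differs from untreated tissue in these genes after recovery. *Cdh3* was higher in every laser treated library than in every control library, and the other 7 genes overlapped between the groups. By the quasi-likelihood test of edgeR, adjusted over all 14602 genes by the Benjamini-Hochberg method, 0 of the 8 genes and 0 of all genes passed an adjusted p of 0.05 (0% of genes). At an unadjusted p under 0.05 there was 1 of the 8, higher after laser, against 15.9% of all genes (8.24% higher and 7.68% lower), so the share of the 8 genes was close to the background. By DESeq2, 502 of 7512 genes with an adjusted p (6.68%) passed, and *Cdh3* was among them. Fold changes were above 0 for 4 genes and below 0 for 4 on the log2 scale, with a median of -0.02 and a median of -0.02 over all genes.

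**Figure D2:**
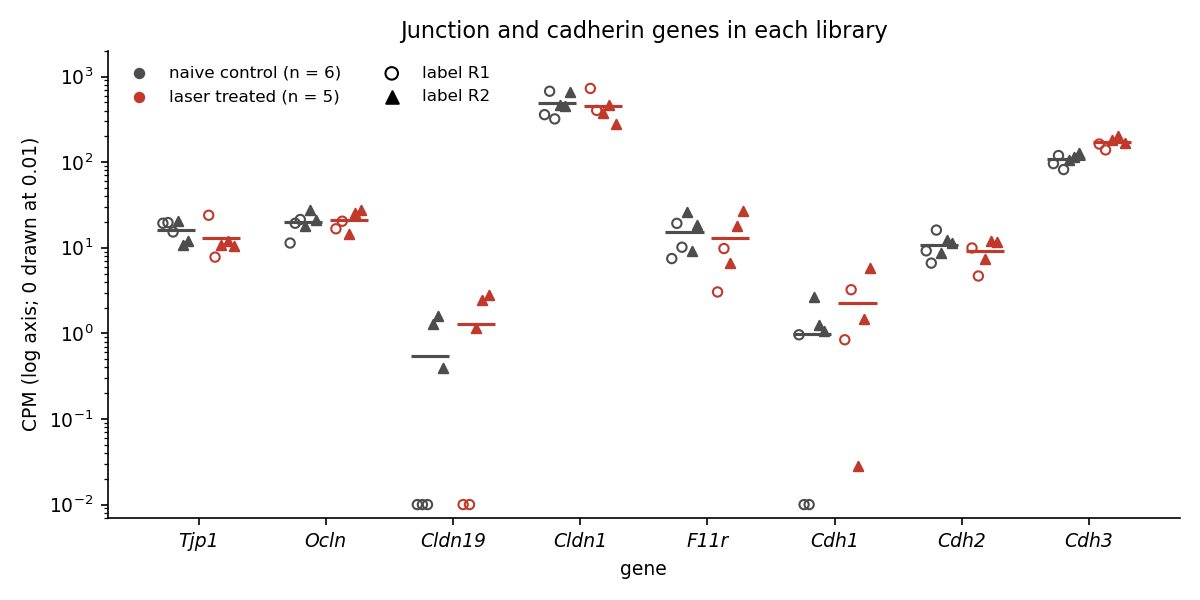
CPM of the 8 genes in each library on a log axis, with 0 drawn at 0.01. Grey points are naïve control and red points laser treated libraries, open circles carry label R1 and filled triangles R2, and lines are group means. *Cdh3* is separated between groups (82 to 128 against 139 to 203 CPM), while *Cldn19* is at 0 in every R1 library.

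*Cdh3* encodes P-cadherin, the calcium-dependent adhesion molecule whose loss in people causes hair loss with macular dystrophy. It lies at chr8:106510891-106557297 on the plus strand of GRCm38, in 16 exons. Control libraries ranged from 81.9 to 128 CPM with a median of 110 CPM. The laser treated libraries were at 163, 139, 179, 203 and 165 CPM. The lowest laser treated library was thus 10.9 CPM above the highest control, a separation seen in 2.26% of all genes in either direction and in 1.40% with laser higher. The means were 108 ± 16.9 CPM (SD, n = 6) and 170 ± 23.6 CPM (SD, n = 5). The log2 fold change was 0.66 ± 0.14 (SE), a fold of 1.58 with a 95% interval of 1.29 to 1.93.

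This difference did not pass edgeR's test over all genes (adjusted p = 0.172), where 20 genes had a smaller p. By DESeq2 the adjusted p was 0.00500, so the call depended on the tool. The exact two-sided permutation test of *Cdh3* alone gave p = 0.00433, the smallest that 6 against 5 libraries allow. Within label R1 the log2 fold change was 0.63 (edgeR adjusted p = 0.228) and within R2 it was 0.68 (edgeR adjusted p = 0.780). The control and laser treated ranges did not overlap within either label, which follows from their separation over all 11 libraries. A GC trend was also removed, fitted in each library to log2 CPM relative to each gene's mean. The log2 fold change was then 0.57 (edgeR adjusted p = 0.674). The GC content of *Cdh3* exons was 52.1%, and the median of all genes was 49.8%.

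The RPE content of the libraries was set beside this result after the data were seen. Relative to the mean log2 level of the 12 RPE markers, *Cdh3* was -3.70 ± 0.24 in controls and -3.00 ± 0.50 after laser (SD, n = 6 and n = 5; difference 0.70, exact permutation p = 0.0173), with ranges of -4.03 to -3.42 and -3.55 to -2.23 that overlapped. That mean includes *Best1*, which was near 0. Over the 11 markers with reads in every library the values were -4.73 ± 0.07 and -4.10 ± 0.42 (SD, n = 6 and n = 5; difference 0.64, exact permutation p = 0.00433), with ranges of -4.87 to -4.69 and -4.58 to -3.50 that did not overlap. Of the 12 RPE markers, 5 had a log2 fold change above 0 and 7 below. By edgeR 3 (25%) had an unadjusted p under 0.05, against 15.9% of all genes, and 2 of these 3 were higher. With the GC trend removed 0 of the 12 had one, against 7.33% of all genes. *Stra6*, the retinol-binding protein receptor, was at 1663 ± 358 CPM in controls and 2397 ± 378 CPM after laser, and *Slc16a8*, a lactate transporter, at 2618 ± 491 and 3710 ± 698 CPM (SD, n = 6 and n = 5). Both passed DESeq2 (adjusted p = 0.0397 for each) and not edgeR (adjusted p = 0.179 for each). *Mitf*, a regulator of pigment cells, was at 72.9 ± 12.9 and 52.0 ± 12.0 CPM. Schwann cell markers (5 of 7 genes in the table) summed to 404 to 635 CPM in controls and 600 to 1149 CPM after laser. Of these 5, 3 (60%) were higher after laser at an unadjusted p under 0.05 by edgeR, against 8.24% of all genes. *Egr2*, a regulator of that cell type, was not in the table. The part of RPE or Schwann cell content in the *Cdh3* result was not tested.

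Reads over single *Cdh3* exons were examined in the transcript assemblies, where 3 internal exons had a fragment in at least 9 libraries. All 3 are wholly coding and are shown because the difference was measured over them. The sequences, from the GENCODE M21 transcript on GRCm38, plus strand and 5′ to 3′ with no letters marked, are those of exon 10 (chr8:106543651-106543892), exon 12 (chr8:106545003-106545227) and exon 13 (chr8:106547622-106547831).
Cdh3 exon 10: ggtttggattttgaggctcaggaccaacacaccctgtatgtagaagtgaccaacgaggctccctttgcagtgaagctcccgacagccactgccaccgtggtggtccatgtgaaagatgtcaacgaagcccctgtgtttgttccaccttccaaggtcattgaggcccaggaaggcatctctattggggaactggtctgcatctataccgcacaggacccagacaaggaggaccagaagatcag
Cdh3 exon 12: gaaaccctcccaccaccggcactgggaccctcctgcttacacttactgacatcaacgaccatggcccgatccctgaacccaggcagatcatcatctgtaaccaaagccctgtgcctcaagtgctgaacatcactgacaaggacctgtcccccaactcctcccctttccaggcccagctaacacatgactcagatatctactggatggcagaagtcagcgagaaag
Cdh3 exon 13: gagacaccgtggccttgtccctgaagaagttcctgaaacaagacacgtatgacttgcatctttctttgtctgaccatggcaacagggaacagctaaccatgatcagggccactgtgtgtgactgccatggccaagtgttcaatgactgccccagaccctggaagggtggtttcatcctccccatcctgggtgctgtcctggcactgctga

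Exon 10 had an FPKM (the value of the assembled fragment, scaled to its own length and the library size) of 24.1 ± 6.74 in controls and 44.6 ± 18.1 after laser (SD, n = 6 and n = 5). Exon 12 had 23.1 ± 6.10 and 40.5 ± 10.5 FPKM (SD, n = 6 and n = 5). For exon 13 the values were 28.4 ± 5.16 and 48.9 ± 12.3 FPKM (SD, n = 5 in each group, since control 3 had no fragment there). Each mean was higher after laser, and only exon 13 had groups that did not overlap. Higher means were not particular to *Cdh3*. They were also found, with overlapping groups, over exons of genes with a negative log2 fold change in counts. Examples were *Cldn1* exon 1 (34.8 in controls and 52.2 FPKM after laser), *F11r* exon 4 (4.75 and 7.35) and *Cdh2* exon 4 (1.17 and 1.83). Of all measured exons, only *Tjp1* exon 31 and *Cdh2* exon 11 had lower means. The part of this in the *Cdh3* exon values was not tested. For the 3 *Cdh3* exons, exact permutation p-values were 0.0519, 0.00866 and 0.00794. After adjustment over the 12 exons of the 8 genes that could be measured they were 0.208, 0.0519 and 0.0519. In laser treated library 1 the fragment over exon 10 ran into the intron and had an FPKM of 18.5, below every other laser treated library. That value is therefore not of the exon alone. Under another rule, chosen after these values were seen, which keeps fragments lying mostly inside an exon, that library had no value for exon 10, 16 exons could be measured, and 4 of them, all in *Cdh3*, had an adjusted p of 0.0381 (exact permutation test). The call for single exons therefore depended on the rule.

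**Figure D3:**
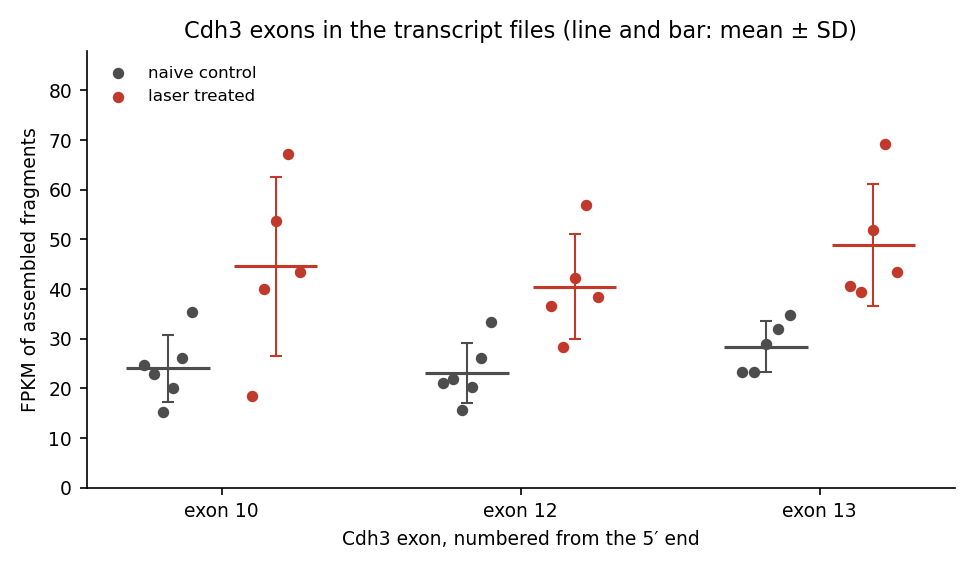
FPKM of assembled fragments over the 3 measured internal exons of *Cdh3*, 1 point per library, with lines and bars for the mean ± SD. Laser treated means (44.6, 40.5 and 48.9) lie above control means (24.1, 23.1 and 28.4), and laser treated library 1 is at 18.5 for exon 10.

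*Cdh2* encodes N-cadherin and lies on chromosome 18. Control libraries ranged from 6.61 to 16.1 CPM with a median of 10.4 CPM, and laser treated libraries were at 9.94, 4.67, 7.33, 11.9 and 11.6 CPM. The groups overlapped, and the lowest value was laser treated library 2. The log2 fold change was -0.24 ± 0.31 (SE; adjusted p = 0.781, edgeR), with an interval for the fold of 0.534 to 1.34. Without laser treated library 2 it was -0.08, without control 3 it was -0.10, without laser treated library 4 it was -0.37, and within R1 and R2 it was -0.51 and -0.06.

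*Cdh1* encodes E-cadherin, the main cadherin of many epithelia, and lies downstream of *Cdh3* at chr8:106603351-106670246. It had few reads: 34, 0, 0, 88, 46 and 35 in the controls, and 26, 119, 1, 51 and 195 after laser. Both groups spanned from 0 or 1 read to their highest value, so they overlapped widely. Levels were 0.985 ± 0.977 and 2.29 ± 2.32 CPM (SD, n = 6 and n = 5; edgeR adjusted p = 0.721). The summed surface epithelium markers, where E-cadherin is also made, were highest in control 6 (1576 CPM) and laser treated library 5 (1207 CPM). *Cdh1* was at 1.06 CPM in the former and 5.86 CPM, its highest level, in the latter, and the part of those cells was not tested.

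Of the reads of the 3 cadherins per kilobase of exon, *Cdh3* took 93.9 ± 2.17% in controls and 96.0 ± 1.65% after laser, and no library was below 90.4%. These shares depend on the measure, since *Cdh2* has 8066 bases of exon and a longest transcript of 4843 bases. With deposited TPM summed per gene, the means over all libraries were 157 for *Cdh3*, 17.8 for *Cdh2* and 3.67 for *Cdh1*. Ratios were taken from CPM without adjustment for length. The log2 ratio of *Cdh3* to *Cdh2* was 3.36 ± 0.59 in controls and 4.28 ± 0.44 after laser (SD, n = 6 and n = 5). This difference of 0.93 had an exact permutation p of 0.0173 and an adjusted p of 0.0693 over 4 ratios, so it missed the threshold. Leaving out control 2 gave 1.09 with an adjusted p of 0.0317, and leaving out any other library gave adjusted p-values of 0.114 to 0.152 (exact permutation test). The other 3 ratios, *Cdh1* to *Cdh2*, *Cdh1* to *Cdh3* and *Cldn19* to *Cldn1*, had adjusted p-values of 0.571 to 0.719 (exact permutation test).

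*Cldn1* encodes claudin-1, a sealing claudin, and lies at chr16:26356642-26371841 on the minus strand. Control libraries ranged from 320 to 673 CPM with a median of 463 CPM. Laser treated libraries were at 726, 402, 373, 466 and 280 CPM. The highest and the lowest value of all 11 libraries were both laser treated, and the groups overlapped. The log2 fold change was -0.12 ± 0.25 (SE; edgeR adjusted p = 0.874), with an interval for the fold of 0.634 to 1.33. Its direction was not stable, at 0.34 within label R1, -0.48 within R2 and 0.19 with the GC trend removed.

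*Cldn19* encodes claudin-19, a claudin of RPE and kidney in which inherited defects impair both organs, and lies at chr4:119255414-119262438, where 90 bases of exon overlap the antisense gene *Gm12927*. Its reads were present or absent by label. The 5 libraries with label R1, 3 control and 2 laser treated, had 0 reads each. The 6 libraries with label R2 had 43, 59 and 13 reads in controls and 41, 86 and 93 after laser. No R1 library therefore reached the lowest R2 library. Over the R2 libraries together the level was 1.64 CPM, 88.3-fold higher than the 0.0186 CPM that 3 reads over all R1 libraries would give. That value pools the libraries and leaves out the spread between them, 0.393 to 2.80 CPM in R2. In a single R1 library 3 reads would give 0.0774 to 0.117 CPM. The comparison was chosen because these zeros had been seen, so it is given as a description. Over all genes edgeR gave *Cldn19* an adjusted p of 0.252 between labels, where 4.21% of all genes had an unadjusted p under 0.05 and 0 genes (0%) an adjusted one.

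Of all 14602 genes, 3 had 0 reads in every R1 library and reads in every R2 library: *Cldn19*, *Slc38a8* and *Sox15*. The reverse was found for 0 genes. Between treatment groups *Cldn19* was at 0.547 ± 0.719 CPM in controls and 1.29 ± 1.32 CPM after laser (SD, n = 6 and n = 5; edgeR adjusted p = 0.791). Within R2 it was at 0.393 to 1.60 CPM in the 3 controls and 1.17 to 2.80 CPM in the 3 laser treated libraries, which overlapped, and within R1 no comparison was possible.

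**Figure D4:**
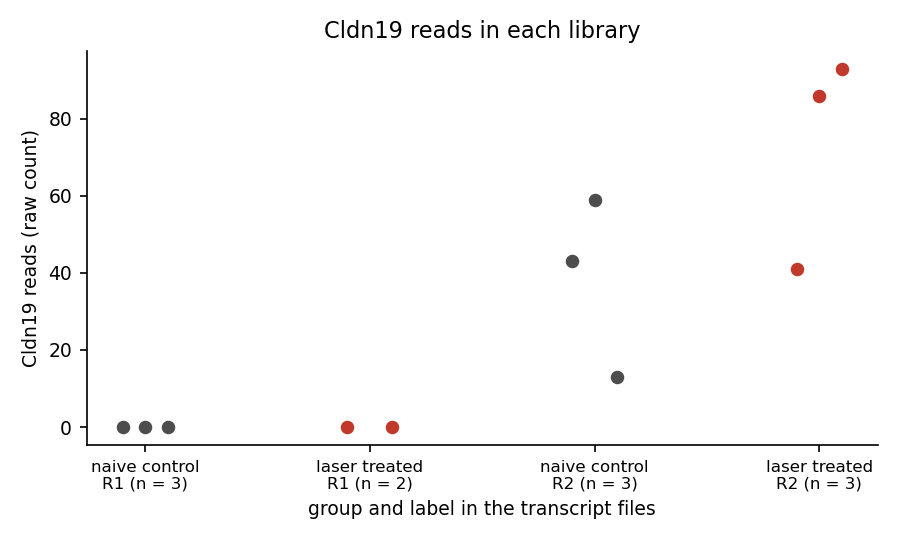
Raw reads of *Cldn19* in each library by treatment group and label of the transcript assembly. The 5 R1 libraries are at 0, and the 6 R2 libraries lie between 13 and 93 reads.

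*Tjp1* encodes the scaffold ZO-1 and lies at chr7:65296165-65527781 on the minus strand. Control libraries ranged from 10.7 to 20.7 CPM with a median of 17.3 CPM. Laser treated libraries were at 24.0, 7.77, 10.6, 11.9 and 10.6 CPM. Library 1 was the highest of all 11, and the other laser treated libraries were within or below the control range. The log2 fold change was -0.33 ± 0.30 (SE; edgeR adjusted p = 0.656), and without laser treated library 1 it was -0.67 (edgeR adjusted p = 0.231).

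*Ocln* encodes occludin and lies at chr13:100496507-100552718 on the minus strand. Control libraries ranged from 11.4 to 27.9 CPM with a median of 20.1 CPM, and laser treated libraries were at 16.6, 20.4, 14.4, 25.4 and 27.4 CPM. Every laser treated library lay within the control range. The log2 fold change was 0.07 ± 0.24 (SE; edgeR adjusted p = 0.923), with an interval for the fold of 0.735 to 1.51.

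*F11r* encodes the junctional adhesion molecule JAM-A and lies at chr1:171437535-171464603 on the plus strand. Control libraries ranged from 7.47 to 26.5 CPM with a median of 14.4 CPM, and laser treated libraries were at 3.04, 9.78, 6.68, 17.9 and 26.9 CPM. Both extremes were laser treated libraries, and the groups overlapped. The log2 fold change was -0.24 ± 0.49 (SE; edgeR adjusted p = 0.878), with an interval for the fold of 0.407 to 1.77.

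**Figure D5:**
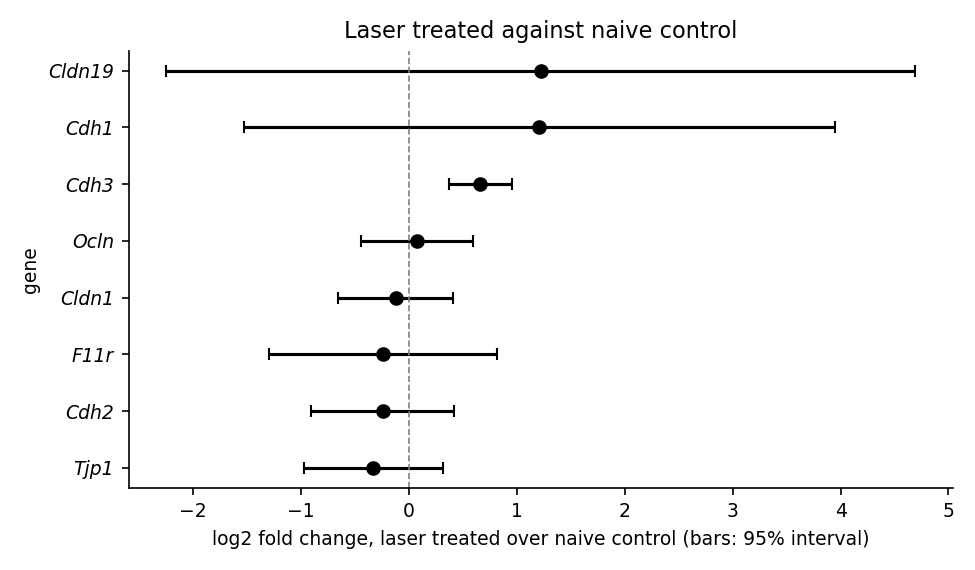
Log2 fold change of each gene, laser treated over naïve control, from edgeR, with bars for the 95% interval. The interval of *Cdh3* (0.37 to 0.95) lies above 0 without adjustment for the 14602 genes tested, and the other 7 include 0.

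Variation from library to library was compared between the 8 genes. Over the 11 libraries, Pearson's r of log2 CPM for the 28 pairs ranged from -0.49 to 0.49, and 0 pairs had a permutation p under 0.05 before or after adjustment (lowest adjusted p = 0.760). By Spearman's rho 1 pair, *Ocln* and *Cdh2*, had an unadjusted permutation p under 0.05 (rho = 0.66, adjusted p = 0.455; r = 0.37). Within the 6 R2 libraries r was 0.94 for that pair and 0.86 for *F11r* and *Cdh1*, the highest of the 28, without a test. The gene whose log2 CPM was most like that of *Cdh3* was *2410002F23Rik* (r = 0.978), and that of *Cldn19* was *Slc38a8* (r = 0.978). Among the others these were *Lamtor3* for *Cldn1* (r = 0.929), *Ints2* for *Tjp1* (r = 0.907), *Rnf19b* for *Ocln* (r = 0.869), *Prrx2* for *Cdh1* (r = 0.950) and *Mtmr6* for *Cdh2* (r = 0.931). Each is the highest of all genes over the same 11 libraries, and is a description.

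Other junction genes were taken from 8 lists, of which 125 of 164 genes were in the table. After laser 0 of the 125 passed edgeR's adjusted p of 0.05, and 16 (12.8%) had an unadjusted p under 0.05, against 15.9% of all genes: 9 were higher and 7 lower. The groups did not overlap for 1 of the 125, against 2.26% of all genes. This was *Plekha7*, which encodes a protein that links adherens junctions to microtubules. It was at 22.6 ± 4.46 CPM in controls, none above 26.8 CPM, and 35.7 ± 8.48 CPM after laser, none below 28.1 CPM (SD, n = 6 and n = 5), a log2 difference of 0.66 ± 0.20 (SE; edgeR adjusted p = 0.179, DESeq2 adjusted p = 0.0493). With the GC trend removed 7 of the 125 had an unadjusted p under 0.05, against 7.33% of all genes.

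Catenins, nectins and their partners held 6 of these 16 genes among 19 measured (31.6%, against 15.9% of all genes). The median log2 fold change of the 19 was 0.22. Besides *Plekha7*, *Ctnna1* (alpha-catenin, which joins cadherins to actin) was at 150 ± 22.8 CPM in controls and 187 ± 24.4 CPM after laser. The actin crosslinker *Actn4* was at 256 ± 53.4 and 368 ± 74.2 CPM. *Zyx* (zyxin) had a log2 fold change of 0.64 and *Camsap3*, which binds microtubule minus ends, 0.60, and *Ctnnd2* (delta-catenin) -1.06. With the GC trend removed *Plekha7*, *Ctnna1* and *Ctnnd2* still had an unadjusted p under 0.05, and *Actn4*, *Zyx* and *Camsap3* did not. *Vcl* (vinculin), named here after its values were seen, then had one, at a log2 fold change of 0.49. That made 4 of the 19, against 7.33% of all genes.

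Tight junction partners held 3 of 29 genes (10.3%) at an unadjusted p under 0.05, against 15.9% of all genes. The median log2 fold change of the 29 was -0.17. *Marveld1* (log2 fold change 0.79) and *Lsr* (0.60), which marks corners where 3 cells meet, were higher, and the scaffold *Mpdz* (-0.67) was lower. With the GC trend removed these were 0.67, 0.38 and -0.54, and of the 3 *Marveld1* alone still had an unadjusted p under 0.05. Polarity complexes held 3 of 22 (13.6%, against 15.9% of all genes): *Pard6b* at 0.40, and *Crb1* at -1.23 and *Lin7a* at -1.33 on the log2 scale. With the GC trend removed they were at 0.28, -0.95 and -0.96, and *Crb1* alone of the 3 had an unadjusted p under 0.05. *Crb1* and *Lin7a* are also expressed in neural retina, whose 11 markers were lower after laser in 10 cases. Of the 11, 1 (9.09%) had an unadjusted p under 0.05, against 15.9% of all genes. The part of retinal cells in the *Crb1* and *Lin7a* values was not tested.

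Of 18 genes for junctional actin and myosin, 3 (16.7%) had an unadjusted p under 0.05, all lower, against 15.9% of all genes (7.68% lower). The kinase *Rock1* was at 142 ± 25.2 CPM in controls and 90.6 ± 14.4 CPM after laser (SD, n = 6 and n = 5), a log2 fold change of -0.65 ± 0.15 (SE; edgeR adjusted p = 0.172, DESeq2 adjusted p = 0.0121) that was -0.30 with the GC trend removed. *Rdx* (radixin) was at -0.39, or -0.14 with that trend removed, and *Cdc42* at -0.23, or 0.07. Of 7 repressors of cadherin genes 1 (14.3%), *Tcf3*, had an unadjusted p under 0.05 (log2 fold change 0.72), against 15.9% of all genes. With the GC trend removed *Tcf3* did not (0.49).

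Other cadherins (12 genes), desmosomes (10) and connexins (8) held 0 genes at an unadjusted p under 0.05 by edgeR, and 0 adjusted. Over all genes the shares were 15.9% and 0%. Of these cadherins the most abundant were *Cdhr1*, a photoreceptor cadherin, at 396 ± 70.0 CPM in controls and 363 ± 75.2 CPM after laser, and *Cdh4* at 29.7 ± 10.6 and 45.0 ± 13.6 CPM. Of the connexins, *Gja1* (connexin-43) was at 220 ± 102 and 238 ± 60.9 CPM and *Gjb2* (connexin-26) at 10.7 ± 5.22 and 7.95 ± 5.10 CPM. The desmosomal genes *Perp* and *Dsp* had log2 fold changes of -0.28 and -0.04.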

How the data were processed

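RNA of RPE/choroid was preamplified (SmartSeq v4) and libraries were made with NexteraXT. Raw counts of 14602 genes in 11 libraries were deposited by the authors, without pooling. The submitters' processing notes name bcl2fastq 2.18.0.12, Trim Galore, STAR 2.5.3a, featureCounts 1.5.3, StringTie 1.3.3, edgeR 3.22.3 and mm10/GRCm38. The authors' log2 columns, the F statistic (a score) and the p-value columns that were deposited hold their own comparison and were not used. The authors also deposited StringTie transcripts for each library with FPKM and TPM, in which every transcript has 1 exon, so the files hold fragments of genes.

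Counts were tested with edgeR 4.0.16 (TMM, filterByExpr, robust quasi-likelihood test, 6 naïve control against 5 laser treated libraries, Benjamini-Hochberg over all genes). filterByExpr removed 0 genes, and the common biological coefficient of variation was 0.58. DESeq2 1.42.0 and limma 3.58.1 (R 4.3.3) were alternatives, and DESeq2's independent filter left 7512 adjusted p-values. Levels per length used GENCODE M21 exons (an offset of 0.01 on the log2 scale). Of all genes, 97.6% had a length and GC content. Exons were measured where a fragment covered at least 80% of the exon. Exact permutation tests used Python 3.11.15 and scipy 1.17.1. Correlations used 100000 permutations. Replicate numbers did not pair the libraries.

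The 8 genes and the gene lists were chosen with earlier results of these data known. Named genes were the 8 genes, list genes with an unadjusted p under 0.05 or otherwise the 2 most abundant of a list, the closest gene to each of the 8 (that of *F11r* is not reported here), and markers. Within-label values, the label comparison, the 2 further length measures, the RPE marker ratios and the exon values were added after the data were seen. Intervals and floors cover counting error or spread between libraries, and reads were amplified without molecular identifiers, so they are not independent molecules.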

Additional observations from a re-analysis of the deposited data

Results flagged for a closer look

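Of 24 groups of values checked for a library apart from the rest, 1 was marked, where chance marks about 1 in 20. Laser treated library 1 had a *Tjp1* level of 23.96 CPM, while the other 4 laser treated libraries lay between 7.77 and 11.9 CPM.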

How the results depend on the processing

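Of the log2 fold changes, *Cdh3* stayed above 0 in every alternative run (0.57 to 0.88, adjusted p 0.00500 to 0.780), *Cdh2* below 0 and *Cldn19* above 0. *Cdh3* passed the adjusted threshold with DESeq2 alone (log2 fold change 0.66), where 1 of the 8 genes was called. Directions turned for *Cldn1* (GC trend removed 0.19, replicate block with GC trend removed 0.37, log2(TPM + 1) 0.0719, log2(TPM + 0.1) 0.0722, label R1 0.34, leaving out 1 library -0.365 to 0.0057, the latter without laser treated 5), *Tjp1* (TPM 0.0755 and 0.0829), *Ocln* (voom weights -0.0688; leaving out 1 library -0.0437 to 0.187), *F11r* (leaving out 1 library -0.697 to 0.0127, the latter without laser treated 1) and *Cdh1* (TPM -0.25 and -0.40), all with small or widely spread values; the cause was not tested.

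Genes called over the whole table were 240 higher and 262 lower with DESeq2, 1 and 1 with at least 10 counts in every library (*Cdh1* and *Cldn19* then have no value), and 0 and 1 with voom. Leaving out 1 library in turn gave 0 to 3 higher and 0 to 1 lower, with 3 and 1 without laser treated 2. List genes at an unadjusted p under 0.05 were 7 with the GC trend removed and 9 to 19 with 1 library left out (9 without control 3, 10 without laser treated 2). The 8 genes then held 1 or 2, with 2 without laser treated 1. The *Cdh3* to *Cdh2* ratio was 0.72 to 1.09, and that of *Cdh1* to *Cdh3* -0.0395 (without control 2) to 1.56.

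For neighbouring levels, summed TPM gave *F11r* over *Tjp1* -0.32, *Tjp1* over *Cdh2* -0.40 and *Ocln* over *F11r* 0.71. Length-weighted TPM gave *Cdh1* over *Cldn19* 3.20, *Cdh2* over *Cdh1* 1.39 and *F11r* over *Tjp1* 0.92. Per kilobase of the longest transcript, *Tjp1* over *Cdh2* was 0.0125.

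Replicate numbers did not pair the libraries (correlations of deviations -0.0094 to 0.28, and 2 of 5 laser treated libraries closest to the control of their own number). With the replicate block *Cdh3* was at 0.72 (adjusted p = 0.163, edgeR), 0 genes were called, and 20 list genes had an unadjusted p under 0.05. *Cdh1* and *Cldn19* had at most 195 and 93 reads in a library.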
